A study of Mus musculus with 36 samples.

Results

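The ADAMTS proteases are secreted zinc metalloproteases that carry thrombospondin repeats and act on the extracellular matrix, and 10 of their genes were followed here in mouse knee cartilage after joint injury: Adamts1, Adamts2, Adamts4, Adamts5, Adamts6, Adamts9, Adamts12, Adamts14, Adamts15 and Adamts16. Members were taken from a list of gene names that was chosen with earlier results of these data known. Each was represented by 1 RefSeq transcript, so the 10 genes stand among 23071 named genes in the counts. In the DNA data, the CpG cytosines inside each gene and within 5 kb on either side were used, which gave 911 of 1444973 cytosines tested at 4 weeks and 814 of 1273121 at 12 weeks.

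Articular cartilage is held together by a collagen network that traps aggrecan, the large proteoglycan that lets the tissue resist compression. Cleavage of aggrecan by the aggrecanases, chiefly ADAMTS4 and ADAMTS5, is an early event of cartilage breakdown in osteoarthritis, and mice that lack ADAMTS5 activity are protected in the surgical model used here. Other members have different tasks, since ADAMTS2 and ADAMTS14 trim the amino-terminal propeptides from fibrillar procollagens before fibrils are assembled.

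The cartilage came from male C57BL/6J mice that were 12 weeks old when the medial meniscus of the right knee was destabilized (DMM), an operation that leads to osteoarthritis. Control cartilage was taken from the left knees, which had received no operation, and the limbs compared came from the same mice, so neither sham-operated knees nor separate healthy mice stand behind the controls. Tibial plateaus and femoral condyles were collected 4 or 12 weeks after surgery, 3 knees were pooled in each library, and every limb and week had 3 RNA libraries, 3 BS libraries and 3 oxBS libraries, with RNA and DNA from different mice. BS (bisulfite) libraries read 5-methylcytosine (5mC) and 5-hydroxymethylcytosine (5hmC) together, and oxBS (oxidative bisulfite) libraries read 5mC alone.

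The RNA libraries held between 27706547 and 62737656 counted reads, and all 12 chondrocyte markers were detected, the lowest being Matn3 at 0.180 to 26.2 CPM (read counts scaled to a common library size) and Matn1 at 0.269 to 1.35 CPM. Markers of other tissues were present too, and some of them moved with surgery. Summed neutrophil and bone marrow markers were 7531 to 21553 CPM in controls and 10968 to 16693 CPM after DMM at 4 weeks. At 12 weeks they were 20565 to 34018 against 16128 to 27300 CPM. Summed erythroid markers were 5174 to 14930 against 5120 to 11006 CPM at 4 weeks, and 7723 to 10827 against 5465 to 9409 CPM at 12 weeks. The limbs overlapped in each of these sums. At 4 weeks, all 8 skeletal muscle markers were lower in every DMM library than in every control library, with a summed level of 422 to 2631 CPM after DMM and 4523 to 16105 CPM in controls. At 12 weeks 2 libraries stood apart in this sum, DMM replicate 1 at 7541 CPM (365 and 624 CPM in the other DMM libraries) and control replicate 3 at 10809 CPM (66.8 and 1365 CPM in the other controls), and the 12-week values of Adamts2, Adamts4 and Adamts15 are also given without this DMM library. Summed osteoblast and osteocyte markers were 6456 to 7591 CPM after DMM and 3151 to 5193 CPM in controls at 4 weeks, and 3459 to 4899 against 1907 to 3016 CPM at 12 weeks. Summed fibroblast and synovium markers were 4349 to 7061 CPM after DMM and 2322 to 4251 CPM in controls at 4 weeks, but overlapped at 12 weeks (5855 to 8352 against 4131 to 8376 CPM). In such bulk tissue, a change in the number of cells that express a gene and a change in the RNA per cell cannot be told apart.

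Adamts2 was the most abundant member per unit of transcript length in every group. In control cartilage at 4 weeks it stood at 9.05 ± 2.32 RPKM (CPM per kb of transcript, mean ± SD, n = 3), followed by Adamts1 at 3.69 ± 0.739 RPKM and Adamts5 at 2.999 ± 1.06 RPKM. Next came Adamts6 at 0.888 ± 0.199 RPKM, Adamts14 at 0.600 ± 0.163 RPKM, Adamts9 at 0.410 ± 0.162 RPKM, Adamts4 at 0.333 ± 0.144 RPKM, Adamts15 at 0.284 ± 0.0398 RPKM, Adamts16 at 0.274 ± 0.176 RPKM and Adamts12 at 0.0953 ± 0.00686 RPKM. Along this order, the libraries separated only between Adamts2 and Adamts1 (lowest 6.60 against highest 4.27 RPKM) and between Adamts5 and Adamts6 (lowest 1.90 against highest 1.01 RPKM), while all other neighbours overlapped. After DMM at 4 weeks, Adamts5 at 3.74 to 5.46 RPKM lay above Adamts1 at 2.27 to 3.13 RPKM without overlap, and Adamts16 moved up to the fifth place at 0.967 ± 0.0118 RPKM. At 12 weeks, Adamts1 again stood second by its mean in both limbs and Adamts12 remained the lowest, at 0.0455 ± 0.0172 RPKM in controls and 0.0859 ± 0.00785 RPKM after DMM. Adamts1 lay above Adamts5 without overlap in the 12-week controls (2.32 to 3.34 against 1.36 to 2.18 RPKM). After DMM the 2 genes overlapped (1.77 to 2.82 against 1.84 to 2.57 RPKM).

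The first comparison asks whether surgery altered the transcripts of these proteases. In the quasi-likelihood test of edgeR, with p adjusted by Benjamini-Hochberg over all transcripts of a week, none of the 10 members passed an adjusted p of 0.05 at either week. This test called few transcripts of any kind, 0.0757% of 21140 at 4 weeks and 0.00476% of 21010 at 12 weeks. At an unadjusted p under 0.05, 2 members (13.7% of all transcripts) were reached at 4 weeks and 1 member (16.3% of all transcripts) at 12 weeks, and DESeq2 called the same number of members, Adamts12 and Adamts16 at 4 weeks and Adamts16 at 12 weeks, where it called 3.34% and 4.03% of all transcripts. Both genes were also the only members whose libraries did not overlap at 4 weeks and again at 12 weeks, every DMM library lying above every control library, as happened for 11.2% and 10.1% of all genes tested. No member lay below the controls in every DMM library, as 10.1% and 8.31% of all genes did. Over the 10 members, the log2 fold change (DMM over control) was above 0 for 7 genes at 4 weeks, beside 48.1% of all genes, with a median of 0.34, beside -0.02. It was above 0 for 6 genes at 12 weeks, beside 52.3% of all genes, with a median of 0.20, beside 0.02.

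**Figure D1:**
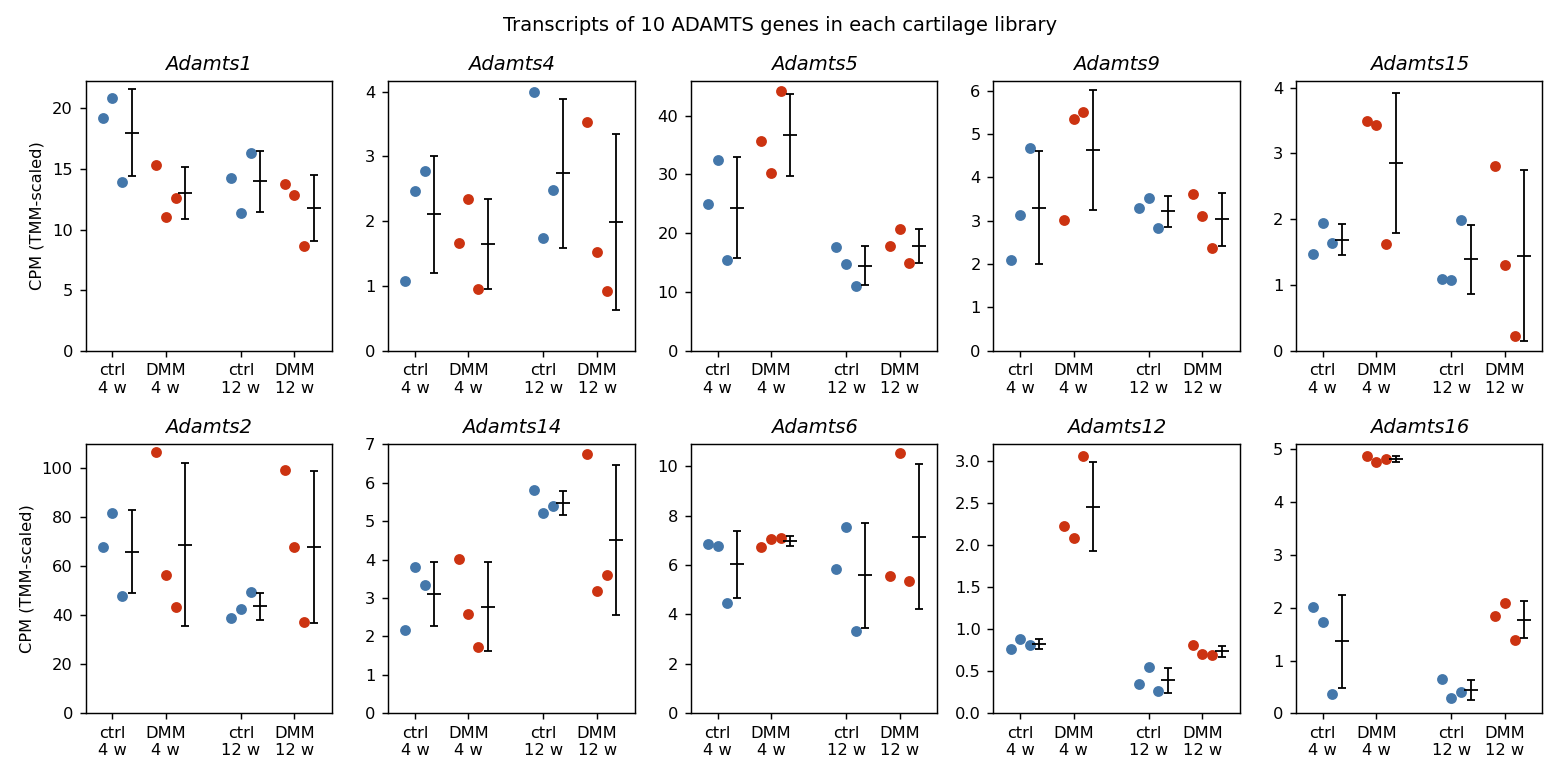
TMM-scaled CPM of the 10 members in each RNA library (points) by limb and week, control in blue and DMM in red, with the mean and SD of each group (n = 3) to the right; each panel has its own axis from 0. Only in Adamts12 and Adamts16 do all red points lie above all blue points at both weeks.

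Adamts16, whose protease can cleave fibronectin, had the highest log2 fold change of the members at both weeks. At 4 weeks its level was 2.002, 1.72 and 0.362 CPM in the control libraries and 4.86, 4.75 and 4.82 CPM in the DMM libraries. Later, at 12 weeks, the level was 0.654, 0.286 and 0.404 CPM in the controls and 1.85, 2.08 and 1.39 CPM after DMM. The DMM libraries thus lay above the controls at both weeks, on a lower scale at 12 weeks, and the third control library at 4 weeks, with 19 reads, stood apart from the other two, which had 84 and 86. The log2 fold change was 1.82 (SE 0.54, edgeR adjusted p = 0.270, DESeq2 adjusted p = 0.0210) at 4 weeks and 1.997 (SE 0.40, edgeR adjusted p = 0.155, DESeq2 adjusted p = 0.00122) at 12 weeks. With the replicate number as a block, edgeR called Adamts16 at 12 weeks (adjusted p = 0.0450) but not at 4 weeks. Leaving out each library in turn kept the log2 fold change between 1.35 and 2.19 at 4 weeks and between 1.71 and 2.35 at 12 weeks.

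Adamts12, a protease that can degrade cartilage oligomeric matrix protein (COMP), was the other member with separate libraries. At 4 weeks its level was 0.763, 0.881 and 0.819 CPM in the controls and 2.22, 2.08 and 3.07 CPM after DMM. The 12-week level was 0.350, 0.557 and 0.269 CPM in the controls and 0.818, 0.705 and 0.697 CPM after DMM. All DMM libraries were again above all controls, although the counts were low, with 10 to 35 reads in the 12-week controls. The log2 fold change was 1.57 (SE 0.31, edgeR adjusted p = 0.192, DESeq2 adjusted p = 0.000623) at 4 weeks and 0.90 (SE 0.40, edgeR adjusted p = 0.310, DESeq2 adjusted p = 0.333) at 12 weeks, so that at 12 weeks neither test called it. Beside Adamts12 and Adamts16, 5 of 8 fibroblast and synovium markers were higher in every DMM library at each week (Col3a1, Thy1, Dpt and Clec3b at both), and Pi16 was lower in every DMM library at 4 weeks. The same was seen, upwards, for 2 of 6 osteoblast and osteocyte markers at 4 weeks and 3 of 6 at 12 weeks, and for 3 of 6 endothelium markers and 1 of 5 adipocyte markers at 4 weeks. At 12 weeks, 3 of 6 erythroid and 3 of 5 macrophage markers were lower in every DMM library. The mean was higher after DMM for 7 and 6 of the 8 fibroblast and for 4 and 5 of the 6 osteoblast markers, and for 5 and 0 of the 5 macrophage markers, and the part of these cells in the result was not tested.

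Among the proteases that cleave aggrecan and related proteoglycans, the major aggrecanase gene Adamts5 measured 25, 32.5 and 15.4 CPM in the 4-week controls and 35.6, 30.3 and 44.2 CPM after DMM. At 12 weeks it measured 17.7, 14.7 and 11 CPM in the controls and 17.7, 20.8 and 14.9 CPM after DMM. The limbs overlapped at both weeks, with log2 fold changes of 0.59 (SE 0.29, edgeR adjusted p = 0.387) and 0.31 (SE 0.21, edgeR adjusted p = 0.464). Leaving out 1 library moved these from 0.33 (without control replicate 3) to 0.86 at 4 weeks and from 0.13 (without control replicate 3) to 0.46 at 12 weeks. The unadjusted 95% intervals, -0.08 to 1.26 and -0.17 to 0.79, leave room for more than a doubling at 4 weeks. Adamts4, the aggrecanase gene known for its induction by cytokines, had no more than 171 reads in any library and measured 1.07, 2.46 and 2.78 CPM in the 4-week controls against 1.66, 2.34 and 0.951 CPM after DMM. Its log2 fold changes were -0.36 (SE 0.46, edgeR adjusted p = 0.710) at 4 weeks and -0.43 (SE 0.52, edgeR adjusted p = 0.686) at 12 weeks, with libraries of both limbs intermixed. Leaving out 1 library moved these from -0.69 to -0.09 at 4 weeks, and from -1.17 (without DMM replicate 1) to -0.08 at 12 weeks.

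Adamts1, a hyalectanase gene with known roles in ovulation and vessel growth, was the only one of the better expressed members with lower means after DMM. It measured 19.2, 20.9 and 14.0 CPM in the 4-week controls and 15.3, 11.1 and 12.6 CPM after DMM. The 12-week libraries held 14.3, 11.3 and 16.3 CPM in the controls and 13.8, 12.8 and 8.65 CPM after DMM. One 4-week DMM library exceeded the lowest control, and the log2 fold changes of -0.48 (SE 0.23, edgeR adjusted p = 0.387) and -0.24 (SE 0.22, edgeR adjusted p = 0.597) did not pass the test. Adamts15, another hyalectanase gene, ranged from 1.48 to 1.94 CPM in the 4-week controls and was 3.50, 3.43 and 1.63 CPM after DMM. At 12 weeks its DMM libraries spread from 0.225 CPM (10 reads) to 2.81 CPM (134 reads), around controls of 1.08 to 1.99 CPM. Its log2 fold change of 0.75 (SE 0.36, edgeR adjusted p = 0.383) at 4 weeks and 0.09 (SE 0.75, edgeR adjusted p = 0.965) at 12 weeks therefore rested on widely spread libraries, and without DMM replicate 1 the 12-week value was -0.90. Adamts9, a versican- and aggrecan-cleaving member, measured 2.10 to 4.68 CPM in the 4-week controls and 3.03 to 5.52 CPM after DMM, a log2 fold change of 0.47 (SE 0.37, edgeR adjusted p = 0.543), and differed by -0.07 (SE 0.25, edgeR adjusted p = 0.903) at 12 weeks.

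The procollagen N-proteinase gene Adamts2 measured 67.8, 81.5 and 48.0 CPM in the 4-week controls and 106, 56.5 and 43.2 CPM after DMM. The 12-week values were 38.8, 42.5 and 49.6 CPM in the controls and 99.0, 67.6 and 37.1 CPM after DMM. In each week the highest and the lowest of the 6 libraries were both DMM libraries, which left log2 fold changes of 0.06 (SE 0.36, edgeR adjusted p = 0.944) and 0.65 (SE 0.33, edgeR adjusted p = 0.347). Without DMM replicate 1 of the week, the values were -0.42 at 4 weeks and 0.27 at 12 weeks. Adamts14, its close relative, ranged from 2.17 to 3.80 CPM in the 4-week controls and from 1.72 to 4.00 CPM after DMM. The 12-week range was 5.22 to 5.82 CPM in the controls and 3.19 to 6.75 CPM after DMM, and the log2 fold changes were -0.17 (SE 0.38, edgeR adjusted p = 0.842) and -0.26 (SE 0.30, edgeR adjusted p = 0.675). Exons of Adamts2, Adamts5, Adamts9 and Adamts14 overlap non-coding RNAs on the opposite strand, whose reads cannot be told apart without strand information. Adamts6, which acts on fibrillin-rich microfibrils, was 4.47 to 6.86 CPM in the 4-week controls and 6.73 to 7.08 CPM after DMM, and its log2 fold changes were 0.20 (SE 0.24, edgeR adjusted p = 0.694) and 0.36 (SE 0.37, edgeR adjusted p = 0.626). Leaving out 1 library moved the 4-week value from 0.0099 to 0.30.

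**Figure D2:**
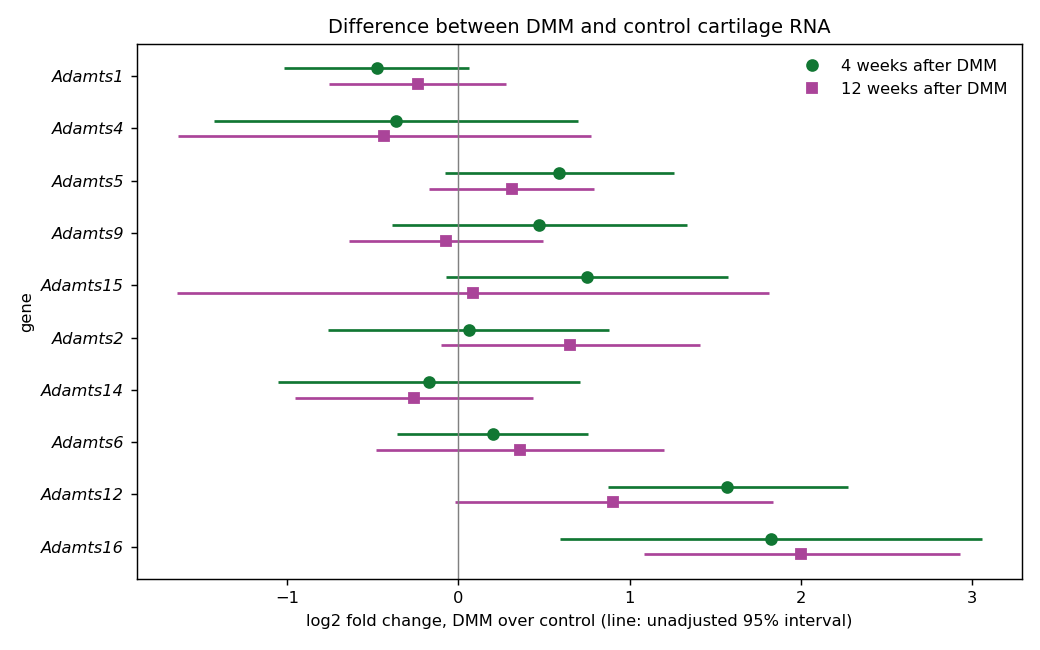
Log2 fold change of DMM over control for each member (x axis) at 4 weeks (circles) and 12 weeks (squares) with unadjusted 95% intervals of the edgeR fit, 3 libraries per limb. Intervals lie above 0 for Adamts12 at 4 weeks and for Adamts16 at both weeks, and those of the other members include 0.

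The effect of surgery was then compared between weeks by the interaction of limb and week over all 12 RNA libraries. It was not called for any transcript (0% of 21618), DESeq2 called none of the members and 0.0613% of all transcripts, and no member reached an unadjusted p under 0.05, beside 12.3% of all. The edgeR adjusted p of the members ran from 0.491 to 0.961. The change in log2 fold change from 4 to 12 weeks was -0.68 (95% interval -1.67 to 0.30) for Adamts12, 0.18 (-1.36 to 1.72) for Adamts16 and -0.28 (-1.13 to 0.56) for Adamts5, and these intervals are wide enough to hold sizeable differences in either direction.

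Each limb was also compared between weeks, in different mice, and the 2 comparisons draw on the same fit. Time after surgery, the age of the mice and the preparation of the libraries cannot be told apart here. In DMM cartilage 2 of the 10 members were called, beside 23.6% of all transcripts, and in controls 0, beside 5.69%, so that the members were not called more often than transcripts in general. In DMM cartilage, Adamts5 fell by 0.9989 on the log2 scale from 4 to 12 weeks (SE 0.28, edgeR adjusted p = 0.0245), from 36.7 ± 7.03 to 17.8 ± 2.94 CPM (n = 3). Adamts12 fell by 1.68 (SE 0.32, edgeR adjusted p = 0.00546), from 2.46 ± 0.532 to 0.740 ± 0.0676 CPM. The DMM libraries of Adamts5, Adamts12 and Adamts16 lay lower at 12 weeks without overlap, 3 of 10 members beside 21.7% of all genes (42.2% separated in either direction). Between the same libraries, summed osteoblast and osteocyte markers went from 6456 to 7591 CPM at 4 weeks to 3459 to 4899 CPM at 12 weeks, and summed chondrocyte markers from 8596 to 12549 to 15045 to 23151 CPM. The sums of macrophage markers (560 to 1017, then 288 to 414 CPM), endothelium markers (143 to 179, then 78.6 to 102 CPM) and adipocyte markers (162 to 255, then 78.5 to 115 CPM) also lay lower at 12 weeks, these 5 sums all without overlap. Of the 8 fibroblast and synovium markers, 6 were lower and 2 were higher in every 12-week library, and their sum overlapped. Of the single genes, 2 of 6 osteoblast and osteocyte markers were lower and 2 higher in every 12-week library. Of 12 chondrocyte markers 3 were higher and 0 lower, and Prg4 alone ranged from 5246 to 16403 CPM over all RNA libraries. Lower in every 12-week library were also 5 of 5 macrophage, 4 of 6 endothelium and 3 of 5 adipocyte markers, and 0 of these were higher. The part of these cells in the falls was not tested. In this comparison, 3 members had an unadjusted p under 0.05, beside 37.4% of all. DESeq2 called 3 members, beside 30.8% of all. By edgeR, the Adamts5 call was lost without DMM replicate 3 of week 4 (adjusted p = 0.0917), DMM replicate 1 of week 12 (0.0688) or DMM replicate 3 of week 12 (0.0906), with log2 differences of -0.88, -0.99 and -0.88. Adamts16 differed by -1.40 (SE 0.49, edgeR adjusted p = 0.0569, DESeq2 adjusted p = 0.0152), and edgeR called it with at least 10 counts in every library (adjusted p = 0.0465) and with the replicate number as a block (adjusted p = 0.0416). In control cartilage Adamts5 had the same sign, from 24.3 ± 8.59 to 14.5 ± 3.33 CPM, with a log2 difference of -0.71 (SE 0.28, edgeR adjusted p = 0.133), and it was called without control replicate 3 of week 4 (-0.99, adjusted p = 0.0126). In these controls, 4 members had an unadjusted p under 0.05, beside 25.4% of all. Adamts12 lay lower and Adamts14 higher at 12 weeks without overlap, beside 26.7% of all genes (12.9% lower). Summed osteoblast and osteocyte markers went from 3151 to 5193 CPM to 1907 to 3016 CPM, and the other sums overlapped. Of 8 fibroblast and synovium markers, 5 were lower and 2 higher in every 12-week control library. The part of these cells in the control values was not tested. DESeq2 called Adamts12 and Adamts16 there, beside 13.6% of all, with edgeR log2 differences of -0.9996 (SE 0.33, edgeR adjusted p = 0.0850) and -1.57 (SE 0.52, edgeR adjusted p = 0.0890). Adamts14 ran the other way in both limbs, with log2 differences of 0.85 (SE 0.35, edgeR adjusted p = 0.157) in controls and 0.75 (SE 0.35, edgeR adjusted p = 0.144) after DMM. Leaving out 1 library moved these from 0.63 to 1.04 in controls and from 0.35 to 1.11 after DMM. Over 19 edgeR and DESeq2 settings, its lowest adjusted p was 0.118 in controls and 0.0463 after DMM.

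The members act in a network of pro-form convertases, inhibitors, cofactors and substrates, which was described by 7 gene lists. No gene of these lists was called by edgeR at either week, and 12 of 50 tested genes at 4 weeks and 21 of 51 at 12 weeks had an unadjusted p under 0.05, against 13.7% and 16.3% of all transcripts. DESeq2 called 5 and 12 of them, beside 3.34% and 4.03% of all transcripts. The lists were chosen with earlier results of these data known, so these shares do not test the lists. Each listed gene also stands for 1 transcript, while the shares of all count every transcript tested. At 12 weeks the median log2 fold change was 0.70 for the list named proteoglycan substrates, with all 9 tested genes above 0. Over all genes the median was 0.02, with 52.3% above 0. Of this list, Comp, Hapln1 and Matn3 do not encode proteoglycans. The chondrocyte markers, which share Acan, Comp, Hapln1 and Matn3 with this list, had a higher mean after DMM in 12 of 12 genes at 12 weeks (summed 15045 to 23151 against 7287 to 20820 CPM) and in 3 of 12 at 4 weeks (8596 to 12549 against 9412 to 20235 CPM), and their part in these values was not tested. The 12-week median was 0.82 for the procollagens, 0.47 for the inhibitors and cofactors, 0.57 for the convertases and folding factors and -0.22 for the inducers. At 4 weeks the medians of these lists, from the proteoglycan list to the inducers in the same order, were 0.08, 0.46, -0.11, -0.16 and -0.04. On the proteoglycan list, Comp, Hapln1 and Matn3 stood at -0.57, 0.08 and -2.98 at 4 weeks. The medians of the other ADAMTS genes and the ADAMTS-like genes were 0.20 and -0.06 at 4 weeks and -0.01 and 0.36 at 12 weeks. Of the protease inhibitors, Timp1 had a log2 fold change of 1.18 (SE 0.33, edgeR adjusted p = 0.263, DESeq2 adjusted p = 0.0367) and Timp4 one of -1.48 (SE 0.32, edgeR adjusted p = 0.219, DESeq2 adjusted p = 0.00141) at 4 weeks. Timp3, the main tissue inhibitor of the aggrecanases, overlapped between limbs at both weeks, at -0.54 (SE 0.38) and 0.27 (SE 0.23).

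At 12 weeks the inhibitor Timp2 stood at 1.14 (SE 0.33, edgeR adjusted p = 0.227), the broad inhibitor A2m at -1.32 (SE 0.36, edgeR adjusted p = 0.217) and fibronectin (Fn1) at 0.98 (SE 0.22, edgeR adjusted p = 0.194), and DESeq2 called all 3. The convertase genes Furin and Pcsk6, whose products activate ADAMTS zymogens, were higher in every DMM library at 12 weeks. Their log2 fold changes were 0.80 (SE 0.21, DESeq2 adjusted p = 0.0278) and 1.08 (SE 0.25, DESeq2 adjusted p = 0.00645). Furin had the opposite sign at 4 weeks, -1.06 (SE 0.42), with overlapping libraries. Among proteoglycan substrates, aggrecan itself (Acan) overlapped between limbs at both weeks, at -0.60 (SE 0.40) and 0.57 (SE 0.29). The collagen-binding proteoglycan gene Fmod stood at 1.35 (SE 0.43, edgeR adjusted p = 0.298) at 4 weeks and 2.06 (SE 0.36, edgeR adjusted p = 0.119) at 12 weeks. DESeq2 called it at both weeks (adjusted p = 0.0402 and 6.12e-07). COMP, a substrate of ADAMTS12, was 1.004 (SE 0.28, edgeR adjusted p = 0.221, DESeq2 adjusted p = 0.0104) at 12 weeks and -0.57 (SE 0.48) with overlapping libraries at 4 weeks. The small proteoglycan genes Bgn and Dcn were higher in every DMM library at both weeks, with 0.78 (SE 0.25) and 0.80 (SE 0.47) at 4 weeks and 0.70 (SE 0.19) and 0.85 (SE 0.31) at 12 weeks. DESeq2 called Bgn at both weeks (adjusted p = 0.0339 and 0.0164) and Dcn at neither. The convertase gene Pcsk5 stood at 0.69 (SE 0.25) at 12 weeks.

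Of the procollagens that ADAMTS2 and ADAMTS14 process, Col3a1 had log2 fold changes of 1.48 (SE 0.66, edgeR adjusted p = 0.371) at 4 weeks and 2.29 (SE 0.41, edgeR adjusted p = 0.122) at 12 weeks. Col5a1 stood at 0.92 (SE 0.19, edgeR adjusted p = 0.218) and 0.99 (SE 0.24, edgeR adjusted p = 0.211). DESeq2 called Col5a1 at both weeks (adjusted p = 0.000908 and 0.00741). It called Col3a1 at 12 weeks (adjusted p = 2.01e-07) but not at 4 weeks (0.155). Every DMM library was above every control for both genes at both weeks, unlike Adamts2 and Adamts14. Col5a2 stood at 0.72 (SE 0.23) at 4 weeks. The type I procollagen genes, the most abundant of the list at 12 weeks, overlapped between limbs at both weeks, with 0.05 (SE 0.49) and -0.09 (SE 0.31) for Col1a1 and 0.14 (SE 0.43) and -0.05 (SE 0.30) for Col1a2. Among other family genes, Adamts3 stood at 1.02 (SE 0.36) and Adamts8 at 0.98 (SE 0.48) at 4 weeks, and Adamts7 at 1.08 (SE 0.37) at 12 weeks, each higher in every DMM library of that week. The ADAMTS-like genes, which have no protease domain and bind the matrix, included Adamtsl2 at -1.62 (SE 0.54) and Adamtsl1 at 0.84 (SE 0.38) at 4 weeks, with papilin (Papln) at -0.90 (SE 0.46), and Adamtsl4 at 0.96 (SE 0.22) and Adamtsl5 at 1.06 (SE 0.26) at 12 weeks, the last pair called by DESeq2. Il1a, Il1b, Tnf and the other listed inducers included no gene that DESeq2 or edgeR called, and Runx2, at 0.41 (SE 0.15) at 12 weeks, was the only one of them with separate libraries.

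Across the 12 RNA libraries and 15580 genes, the genes whose log2 CPM tracked Adamts16 most closely were Lnx1 (Pearson r = 0.985) and Ankrd29 (r = 0.974). For Adamts12 they were Serpinf1 (r = 0.981) and Ppic (r = 0.977), and for Adamts5 they were 4933400C23Rik (r = 0.983) and Etv1 (r = 0.978). The closest partners of Adamts2 were Ptprs (r = 0.910) and Ralgds (r = 0.905), of Adamts6 Ccl28 (r = 0.953) and Gfpt2 (r = 0.932), and of Adamts14 Gm2061 (r = 0.950) and 4933416M07Rik (r = 0.940). The remaining partners were, for Adamts1, Atmin (r = 0.887) and Smarca2 (r = 0.868), for Adamts15 Thsd7a (r = 0.886) and Casd1 (r = 0.886), for Adamts4 Spty2d1 (r = 0.903) and Bcorl1 (r = 0.873), and for Adamts9 Ces2e (r = 0.924) and Zdhhc21 (r = 0.919). The libraries share limb, week and depth, so these values only describe likeness over the 12 libraries.

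In the DNA libraries, 5mC was read at CpG cytosines with 10 or more reads in each of the 6 oxBS libraries from one week. The libraries were made from DNA cut by MspI, an enzyme that cuts at CCGG, so that coverage concentrates where CpG is dense. The RefSeq promoter table (GRCm38) held 5 of the 10 members, and the 250 bases before their starts contained 6 CpG in Adamts12, 15 in Adamts1, 22 in Adamts9, 34 in Adamts2 and 35 in Adamts14, where the median of all 32851 entries was 6.0. CCGG, which reads the same on both strands, was found in all 5 of these windows and in 47.1% of all of them. At 12 weeks, 0 cytosines were covered in the Adamts12 window, 1 in Adamts1, 11 in Adamts9, 9 in Adamts2 and 21 in Adamts14. The poorest and the richest window are printed along the gene's own strand with every CpG in capitals, since they are the extremes in CpG count and in covered cytosines. CCGG occurs 1 time in the first, which had no covered cytosine, and also 1 time in the windows of Adamts1 and Adamts2, which had some. They lie at chr15:11064523-11064772 (plus strand) and chr10:61273420-61273669 (minus strand).
Adamts12: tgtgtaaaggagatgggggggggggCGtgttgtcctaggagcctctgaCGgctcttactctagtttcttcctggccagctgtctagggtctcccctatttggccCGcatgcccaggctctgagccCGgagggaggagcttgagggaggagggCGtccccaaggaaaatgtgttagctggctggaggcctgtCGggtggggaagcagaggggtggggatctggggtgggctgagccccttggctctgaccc
Adamts14: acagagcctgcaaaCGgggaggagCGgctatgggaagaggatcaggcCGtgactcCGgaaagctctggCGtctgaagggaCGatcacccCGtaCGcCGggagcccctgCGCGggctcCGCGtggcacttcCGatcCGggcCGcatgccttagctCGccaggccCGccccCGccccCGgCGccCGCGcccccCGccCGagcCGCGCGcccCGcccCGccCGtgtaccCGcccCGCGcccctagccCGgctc

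Around the transcript starts, methylation was low. Within 1 kb of the start, the mean 5mC in control libraries at 12 weeks was 0.818% in Adamts1 (50 cytosines), 1.19% in Adamts5 (54), 1.25% in Adamts9 (53), 1.29% in Adamts15 (32), 0.539% in Adamts2 (107), 1.79% in Adamts14 (42) and 1.91% in Adamts16 (24). Elsewhere in the same genes it reached 36.7% in Adamts1, 51.8% in Adamts9, 47.1% in Adamts2, 69.8% in Adamts14 and 58.9% in Adamts16, and 10.4% in Adamts5. Adamts12 had no covered cytosine near its start and 76.9% over 43 cytosines in its body. Adamts4 was the exception with a partly methylated start, 26.5 ± 2.37% in controls over 6 cytosines.

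Single cytosines were compared between limbs by a likelihood ratio test on the pooled reads of each limb, and called where they differed by 25 percentage points with q, the Benjamini-Hochberg adjusted p, under 0.05. At 4 weeks no member cytosine was called, beside 0.000554% of all cytosines (0.000346% lower after DMM), and 77 of 911 (8.45%) had an unadjusted p under 0.05, beside 8.02% of all. At 12 weeks 4 of 814 were called (0.491%), beside 0.227% of all cytosines, and 100 (12.3%) had an unadjusted p under 0.05, beside 9.43% of all. Of the 814, 3 (0.369%) were called lower after DMM, beside 0.2% of all cytosines. They lay in Adamts2 and Adamts14, 2 in each gene. Because reads and not libraries are the units of this test, the values of each library decide how a call is read. The 30 bases around each called cytosine (GRCm38) are printed 5′ to 3′ on its own strand with the called CpG in capitals.
Adamts2 intron, 72461 bases after the start, chr11:50674531-50674560, minus strand: tgaaatacgccttcCGgcgcccaggccaga
Adamts2 exon, 201715 bases after the start, chr11:50803786-50803815, plus strand: ggtgcagccttctcCGgggcctcctttgga
Adamts14 upstream, at -119 from the start, chr10:61273524-61273553, plus strand: catgcggcccggatCGgaagtgccacgcgg
Adamts14 intron, 35600 bases after the start, chr10:61237805-61237834, plus strand: aagccacaagagccCGgaacatggcagcct

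The intronic cytosine of Adamts2 was the only called one whose libraries separated. It was 44.4, 54.5 and 60.0% methylated in the 12-week controls and 29.4, 36.8 and 13.2% after DMM, at 19 to 38 reads, a difference of -28.1 points (likelihood ratio q = 0.0171). The BS libraries of that week separated too, at 34.1, 66.7 and 42.9% in controls and 29.0, 25.8 and 13.9% after DMM. At 4 weeks, where DMM replicate 2 had under 10 reads, it was 42.9, 29.8 and 40.7% in controls and 32.1 and 17.9% after DMM, and these overlapped.

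The other 3 called cytosines did not separate the limbs. The cytosine upstream of Adamts14 was 94.1, 0.0 and 92.9% methylated in the 12-week controls and 2.56, 71.4 and 100.0% after DMM, so that control replicate 2 and DMM replicate 1 were unmethylated and the other 4 libraries largely methylated. Its pooled difference of -40.0 points (q = 0.000371) rested on the 78 reads of DMM replicate 1, and the means of the libraries were 62.3% and 58.0%. These same 2 libraries share a style of title. The titles of the other 4 libraries are styled differently again, and their style splits by limb. At 4 weeks all 6 oxBS libraries read 0.0 to 3.03% at this cytosine. The 12-week BS libraries repeated the split, with 91.7 to 94.4% in 4 libraries and 0.0% in DMM replicate 1, while control replicate 2 had under 10 BS reads. Such a split, with both libraries at 10% or less and the other 4 at 70% or more, occurred at 5 of 1273121 cytosines, and the reverse split at 0. On the opposite strand of the same CpG, the 12-week oxBS libraries reached 10 reads only in DMM replicate 1 (0.0%) and control replicate 2 (5.26%).

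The exonic cytosine of Adamts2 likewise read 52.6% in control replicate 2 and 34.2% in DMM replicate 1, against 91.1 and 91.3% in the other controls and 100.0 and 86.5% in the other DMM libraries (difference -25.4 points, q = 0.0129). In the 12-week BS libraries both were again the lowest, at 57.9% and 72.4%, with 79.5 to 89.2% in the other 4. On the opposite strand of this CpG, DMM replicate 1 read 85.4% at 41 oxBS reads. The intronic cytosine of Adamts14 was the one higher after DMM, at 60.0, 92.3 and 66.7% in controls and 100.0, 83.3 and 96.3% after DMM (difference 25.4 points, q = 0.0248), with 12 to 27 reads and overlapping libraries. Without control replicate 2 and DMM replicate 1 together no member cytosine was called, nor without DMM replicate 1 alone, nor after correction for overdispersion. With 20 reads required in every library none was called either, but this rule removed all 4 called cytosines before any test. Their lowest coverage was 12 to 19 reads. Without control replicate 2 alone, 7 were called, and without control replicate 3, 2. The shares of all cytosines called in these settings are not given here.

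**Figure D3:**
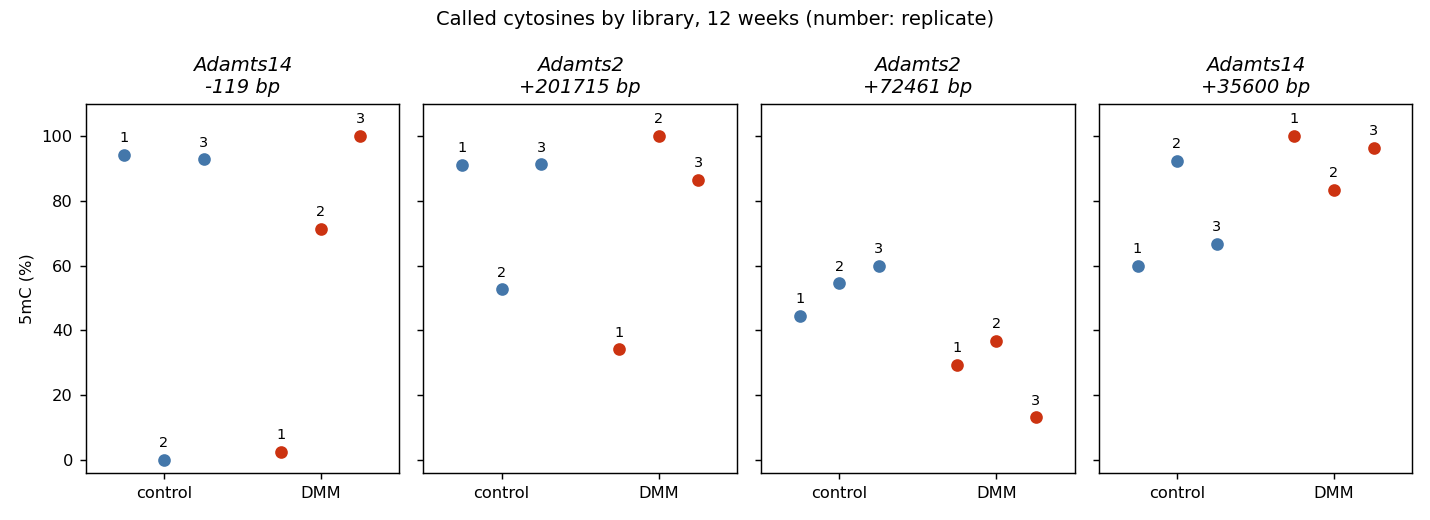
5mC (%) of the 4 called cytosines in each 12-week oxBS library, control in blue and DMM in red, numbered by replicate. Control replicate 2 and DMM replicate 1 lie together below the other libraries in the first 2 panels, and the limbs separate only in the third.

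The other named cytosines, those with the lowest p of each week, had smaller differences that separated the limbs in every library. In an intron of Adamts14, 33091 bases after the start, 5mC was 51.4, 55.9 and 40.0% in the 12-week controls and 27.3, 27.3 and 25% after DMM (-22.5 points, q = 0.00471), with overlap at 4 weeks (27.0 to 47.4% against 30.8 to 34.8%). The 12-week BS libraries overlapped at this site, from 33.3 to 45.1% in controls and from 23.1 to 58.8% after DMM. In an intron of Adamts6, 103417 bases after the start, it was 39.8, 35.3 and 43.2% in the 12-week controls and 18.1, 17.2 and 20% after DMM (-20.9 points, q = 0.00619). The 12-week BS libraries separated as well, at 52.4, 33.3 and 44.1% in controls and 31.8, 31.8 and 20.8% after DMM. At 4 weeks this site ranged from 10.5 to 45.6% in controls and from 5.88 to 19.9% after DMM. The lowest p among member cytosines at 4 weeks belonged to an intronic site of Adamts1, 3123 bases after the start, with 47.2, 24.3 and 37.8% in controls and 14.4, 15.8 and 8.33% after DMM (-18.6 points, q = 0.0723). At 12 weeks the site was 26.3 to 41.2% in controls and 19.2 to 28.6% after DMM, with overlap. The 4-week BS libraries overlapped at this site (24.1 to 36.7% against 16.4 to 27.3%). An exonic site of Adamts12, 262976 bases after the start, read 100.0, 94.1 and 90.0% in the 4-week controls and 83.0, 63.6 and 58.8% after DMM (-20.2 points, q = 0.390), at 10 to 47 reads, while the BS libraries overlapped (81.8 to 92.0% against 75.0 to 93.7%). An intronic site of Adamts2, 717 bases after the start, read 3.80, 2.01 and 4.55% in the 4-week controls and 0.0% in all 3 DMM libraries (-2.79 points, q = 0.322). Its BS libraries overlapped, at 0.0, 1.61 and 2.13% in controls and 2.42, 2.94 and 1.20% after DMM. Both sites overlapped at 12 weeks.

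**Figure D4:**
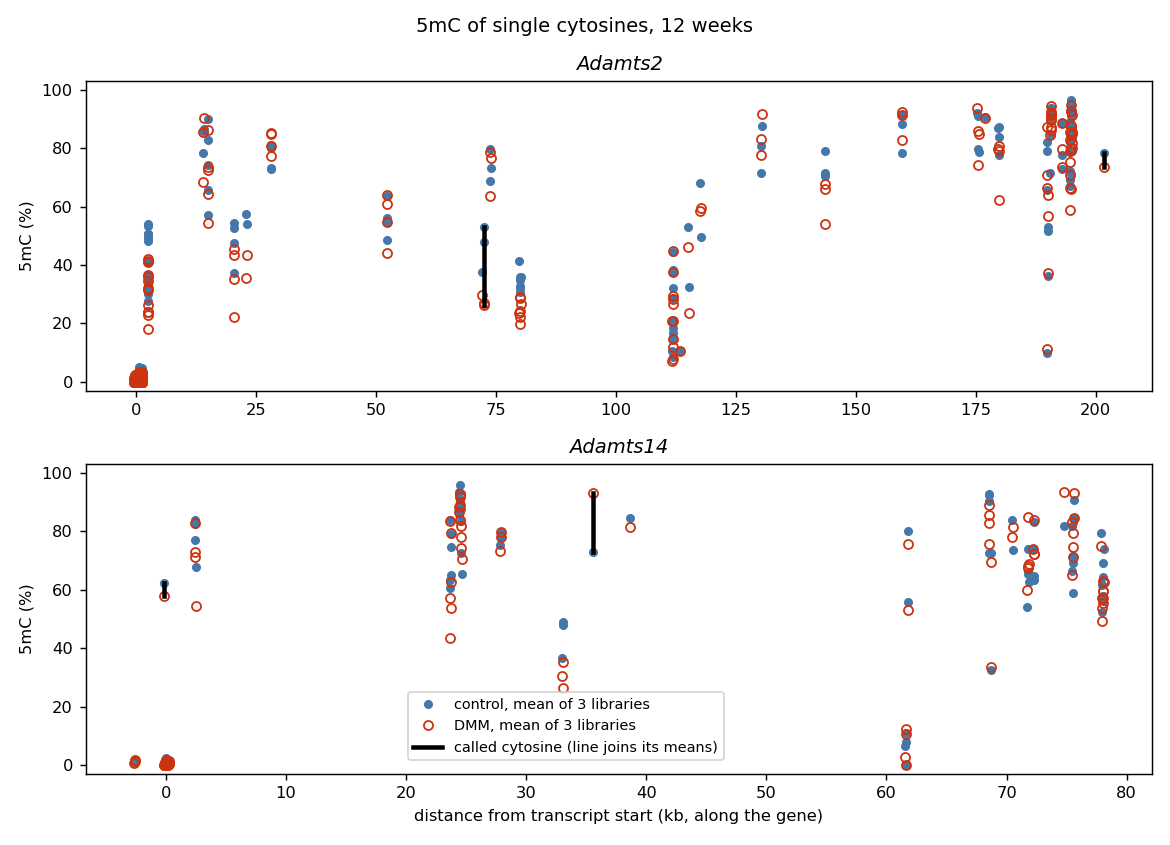
Mean 5mC (%) of each covered cytosine of Adamts2 and Adamts14 in the 3 control (filled) and 3 DMM (open) oxBS libraries at 12 weeks, against distance from the transcript start in kb. Cytosines next to the start lie near 0 except the called one upstream of Adamts14, and black lines join the means of the 4 called cytosines.

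Averaged over each gene and its flanks, 5mC differed in one direction. At 12 weeks, every DMM library was below every control library in 7 of the 10 members, Adamts1, Adamts2, Adamts4, Adamts5, Adamts6, Adamts9 and Adamts12, as was the case for 26.6% of 16864 gene regions, where 30.5% separated in either direction. The exact permutation test over 3 against 3 libraries cannot go below p = 0.1, which all 7 reached (two-sided, 0.143 after Benjamini-Hochberg adjustment over the 10 tests). The libraries as a whole moved with this, since mean 5mC over all tested cytosines was 29.7 to 30.3% in the 12-week controls and 28.8 to 29.5% after DMM. At 4 weeks none of the 10 regions separated, beside 8.4% of 16945 regions (6.36% with every DMM library lower), while the mean of every member was lower after DMM, as it was for 75.0% of the regions. Leaving out control replicate 1 turned the differences of Adamts2 and Adamts14 to 0.0952 and 0.432 points, and leaving out DMM replicate 2 or 3 also turned that of Adamts14. Without control replicate 2, which was the lowest control in all members but Adamts14, 7 members separated, beside 42.6% of the regions. The means over all tested cytosines were 26.8 to 28.4% in the 4-week controls and 26.4 to 27.2% after DMM.

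Adamts6, with only 10 covered cytosines, had the largest of these differences at 12 weeks. Its mean was 65.9, 64.7 and 67.4% in the controls and 56.6, 58.7 and 57.3% after DMM, a difference of -8.44 points. Adamts4 was 28.2, 29.6 and 29.4% in the controls and 24.9, 24.9 and 25.3% after DMM (-4.03 points). Part of this came from its 6 cytosines near the start, which were singled out after their values were seen, at 28.7, 26.8 and 24.0% in the controls and 9.74, 14.7 and 18.3% after DMM. Its 18 cytosines elsewhere in the gene separated too, at 62.2, 66.6 and 66.9% in the controls and 59.7, 58.7 and 58.2% after DMM. At 4 weeks the part near the start read 24.0, 9.63 and 20.3% in controls and 13.3, 7.64 and 12.5% after DMM, with overlap. The part elsewhere in the gene overlapped at 4 weeks as well.

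Adamts12 was 76.0, 76.6 and 78.1% in the 12-week controls and 73.3, 74.2 and 72.7% after DMM (-3.47 points). Adamts1 was 7.18, 6.58 and 7.83% in the controls and 4.81, 5.43 and 4.66% after DMM (-2.23 points), and at its 13 cytosines inside the gene but away from the start, also singled out after their values were seen, 36.1, 33.5 and 40.5% against 25, 27.2 and 24.9%. Adamts2 was 29.0, 28.8 and 29.1% against 26.5, 27.5 and 27.5% (-1.82 points). Adamts5 stood at 3.86, 3.99 and 4.23% in the controls and 3.06, 3.38 and 3.12% after DMM (-0.839 points), whereas the separation in Adamts9 was only 20.7 to 21.4% against 20.5 to 20.6% (-0.442 points, and -0.215 without control replicate 1 to -0.840 without DMM replicate 1).

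Adamts14, Adamts15 and Adamts16 overlapped at 12 weeks, with differences of -0.789, -0.664 and -0.00933 points. Leaving out 1 library moved these from -1.26 to -0.214 (without DMM replicate 1), from -2.03 (without control replicate 2) to -0.294 and from -0.624 to 0.722 points. Adamts16, the member with the highest RNA fold change at this week, thus read 28.2, 26.6 and 28.6% in the controls and 26.3, 28.4 and 28.7% after DMM, and its start was 1.91% and 2.24% methylated. Adamts12, the other member with separate RNA libraries, was among the 7 with lower 5mC. Different cytosines were covered in each week, so region means are compared only within a week.

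**Figure D5:**
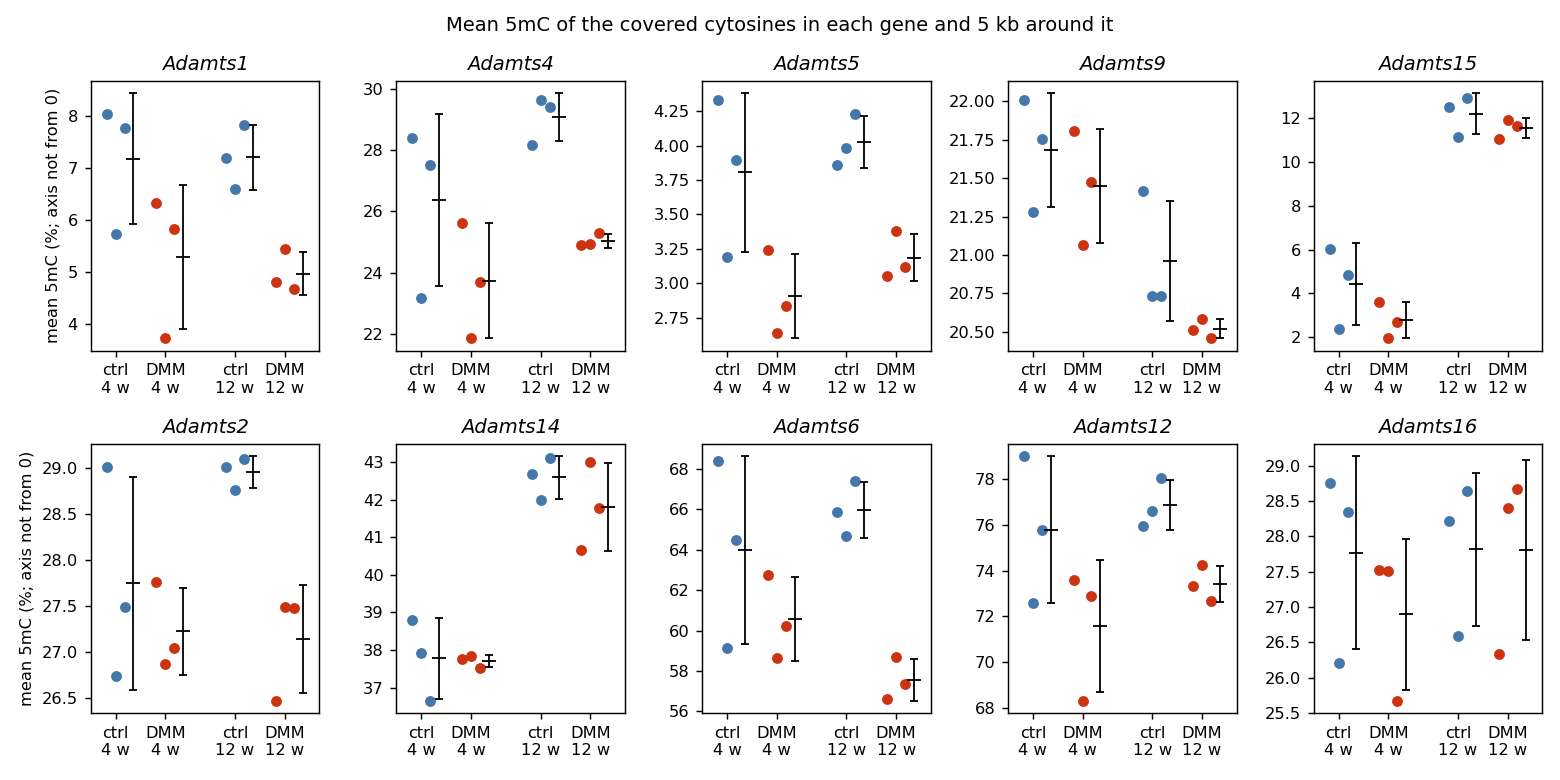
Mean 5mC (%) of the covered cytosines of each member and its flanks in each oxBS library (points), control in blue and DMM in red, with mean and SD (n = 3); the axes do not start at 0 and differ between panels. At 12 weeks the red points lie below the blue ones in 7 panels and overlap them in Adamts14, Adamts15 and Adamts16.

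The 5hmC estimate, the BS percentage minus the oxBS percentage, was low in most members. At 12 weeks the control means ran from -0.862% in Adamts6 to 4.43% in Adamts12, where values below 0 show the noise of a difference between 2 libraries. Every DMM library was above every control in 5 regions, Adamts2, Adamts4, Adamts6, Adamts12 and Adamts14, while 14.8% of 16714 regions separated in either direction, and 2.38% with every DMM library lower. In Adamts12 the estimate was 5.54, 4.01 and 3.73% in the controls and 8.35, 6.09 and 8.77% after DMM (3.31 points, exact permutation p = 0.1, two-sided). In Adamts14 it was 2.28, 1.68 and 1.52% in the controls and 3.77, 3.41 and 4.15% after DMM (1.95 points, exact permutation p = 0.1). Since the estimate subtracts the same oxBS values, a lower 5mC reading raises it by construction. The BS file that belongs to DMM replicate 1 at 12 weeks carries the number of another replicate in its name, and was used by its label; without this replicate, 7 member regions separated, beside 22.4% of all regions. At 4 weeks no region separated, beside 8.75% of 16791 regions (2.19% with every DMM library lower), and Adamts12 again had the highest estimate in both limbs, 6.00 ± 3.38% in controls and 9.95 ± 4.22% after DMM (n = 3).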

How the data were processed

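The members and the gene lists were chosen with earlier results of these data known. The deposited RNA values are raw counts per RefSeq transcript, which the authors obtained by FLEXBAR trimming, STAR alignment to mm10 and featureCounts. Per the labels the libraries were poly(A) selected, whereas the paper describes full-length cDNA libraries, and neither states strand-specific counting. Symbols were matched for 29476 of 30048 transcripts by RefSeq and for 17 by a supplementary table, which left 555 unnamed. Counts were scaled by TMM and filtered by edgeR 4.0.16 in R 4.3.3, and all transcripts of a week were tested with its robust quasi-likelihood test, with an adjusted p under 0.05 as the threshold. Week effects and the interaction used all 12 libraries. RPKM used the length of the counted transcript. Replicates of a group differed by chi-square values of 41.6 to 378 per degree of freedom, so none was a repeat deposit. As no source says that replicates were separate preparations beyond their pools of 3 knees, p-values measure the spread between these pools.

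For RRoxBS, MspI-cut DNA was pooled by 6 libraries, oxidised or not, and the authors' deposited files give coverage, percent of C and percent of T per cytosine, with at least 10 reads. Median coverage was 19.0 to 102 reads per library. All 1725 member cytosines (both weeks) were checked to be CpG in GRCm38. Reads were tested by a logistic likelihood ratio test in Python 3.11.15 with scipy 1.17.1, and region means by exact permutation.

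Groups were called separate when every DMM library was above, or below, every control. Named list genes were those called and, per list and week, the 3 with the largest log2 fold change among those with separate libraries, and further genes (Timp3, Acan, Col1a1 and Col1a2, Furin and Comp at 4 weeks, and Bgn at 12 weeks) were named after their values were seen. Genes of likeness were the 2 with the highest Pearson r of log2 CPM (prior count 2). Alternatives were DESeq2 1.42.0, other scaling and filters, other thresholds, the replicate number as a block, each library left out, and for 5mC other coverage, weighting, strand and region rules. The scripts were checked beforehand on simulated counts and reads with planted differences.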

Additional observations from a re-analysis of the deposited data

How the results depend on the processing

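Each result was recomputed under the alternatives named in the processing section, one choice at a time. With DESeq2, 2 members and 5 pathway genes were called at 4 weeks and 1 member and 12 pathway genes at 12 weeks, where edgeR called 0. DESeq2 called 3.34% and 4.03% of all transcripts in these weeks. In control cartilage between weeks, DESeq2 called 2 members, beside 13.6% of all transcripts. An adjusted p under 0.1 also gave 2 members there, and its share of all transcripts is not given here. Adamts12 kept a log2 fold change between 1.38 and 1.68 at 4 weeks with adjusted p from 0.000623 to 0.794 over 14 settings, and Adamts16 had adjusted p from 0.0210 to 0.853 at 4 weeks and from 0.00122 to 0.613 at 12 weeks.

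The limbs came from the same mice, but no source used here says that libraries with the same number did, so the replicate numbers were not taken as pairs. The deviations of same-numbered control and DMM libraries correlated by 0.36, -0.33 and 0.08 at 4 weeks and by -0.55, 0.26 and -0.25 at 12 weeks in RNA, and by 0.26, 0.21 and 0.0027 and by -0.055, -0.046 and 0.038 in 5mC, and not every library correlated best with its own number. With 3 libraries a group, this does not show that no pairing exists. With the replicate number as a block, 2 pathway genes were called at 4 weeks, and 1 member (Adamts16, adjusted p = 0.0450) and 12 pathway genes at 12 weeks, while 4 member cytosines were called at 12 weeks. The shares of all transcripts and cytosines called with the block are not given here, so these counts cannot be read as high or low. Adamts16 between weeks in DMM cartilage was called with the block (-1.44, adjusted p = 0.0416) and with at least 10 counts in every library (-1.41, adjusted p = 0.0465). The block also turned the sign of 3 values near 0, Adamts2 at 4 weeks to -0.020, Adamts15 at 12 weeks to -0.29 and the Adamts16 interaction to -0.033.

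Other reversals concerned values near 0. Adamts9 between weeks in controls, 0.0011 in the main analysis, was -0.029 with DESeq2, -0.029 with median-of-ratios factors, -0.037 without a filter, -0.022 with at least 10 counts and -0.028 with 1 transcript per gene. Adamts2 between weeks in DMM cartilage, 0.030 in the main analysis, was -0.00065, -0.016 and -0.0087 with DESeq2, no filter and 1 transcript per gene.

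At 12 weeks, 0 member cytosines were called with 20 reads in every library, 0 with overdispersion, 0 without control replicate 2 and DMM replicate 1, 1 with unweighted means and 10 at a difference of 20 points. The rule of 20 reads removed the cytosines called in the main analysis before any test. At 4 weeks, 1 5mC region separated with 20 reads, 1 with pooled reads and 1 without flanks, and 2 and 1 5hmC regions separated with 20 reads and with pooled reads. At 12 weeks, pooled reads left 3 5hmC regions. The cause was not tested, and the shares of all cytosines or regions in these settings are not given here.

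When each library was left out in turn, the calls ranged from 0 to 1 (without control replicate 3) for pathway genes at 4 weeks and from 0 to 6 (without control replicate 2) at 12 weeks, where DMM replicate 3 gave 2. They ranged from 0 to 2 (without control replicate 3 of week 4) for members between weeks in controls, and from 1 to 3 in DMM cartilage. The shares of all transcripts called without each library are not given here, so these counts of calls cannot be read as high or low. Separate RNA members ranged from 3 (beside 23.3 to 40.7% of all genes) to 5 (without DMM replicate 1, beside 47.6%) at 4 weeks and from 2 (beside 22.3 and 25.2%) to 4 (without DMM replicate 1 or 3, beside 28.7 and 43%) at 12 weeks. Called cytosines ranged from 0 to 1 (without control replicate 2) at 4 weeks and from 0 to 7 at 12 weeks, separate 5mC regions from 0 to 7 (without control replicate 2, beside 42.6% of all regions) at 4 weeks and from 7 to 8 (beside 35.7 to 46.8%) at 12 weeks, and separate 5hmC regions from 0 to 4 (without control replicate 2, beside 28.6% of all regions) at 4 weeks and from 4 to 7 at 12 weeks, beside 22.4 to 27.2% of all regions. Fewer libraries separate more easily. For the called cytosines, the share of all cytosines without each library is not given here.

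Leaving out libraries turned the sign of 16 log2 values, which then ranged as follows. DMM against control, Adamts2 ranged from -0.42 to 0.31 and Adamts14 from -0.54 to 0.080 at 4 weeks, and Adamts15 from -0.90 to 0.60, Adamts6 from -0.026 to 0.61 and Adamts9 from -0.23 to 0.085 at 12 weeks. The interaction ranged from -0.80 to 0.29 for Adamts4, from -0.23 to 0.44 for Adamts6, from -0.50 to 0.26 for Adamts14 and from -0.19 to 0.62 for Adamts16. Between weeks in controls, Adamts4 ranged from -0.0094 to 0.65, Adamts6 from -0.36 to 0.15 and Adamts9 from -0.27 to 0.30. Between weeks in DMM cartilage, Adamts1 ranged from -0.24 to 0.084, Adamts2 from -0.33 to 0.49, Adamts4 from -0.39 to 0.66 and Adamts6 from -0.34 to 0.26. With no change of sign, DMM against control, Adamts2 at 12 weeks ranged from 0.27 to 0.96, Adamts5 from 0.33 to 0.86 at 4 weeks and from 0.13 to 0.46 at 12 weeks, Adamts1 at 12 weeks from -0.40 to -0.05 (without DMM replicate 3), Adamts14 at 12 weeks from -0.69 (without DMM replicate 1) to -0.07 (without DMM replicate 2) and Adamts9 at 4 weeks from 0.24 to 0.80 (lowest and highest when control replicate 1 or 3 was left out). The interaction ranged from -0.88 to -0.32 (without control replicate 2 of week 12) for Adamts12 and from -0.56 to -0.05 for Adamts5 (lowest and highest when control replicate 2 or 3 of week 4 was left out). For the 12-week 5mC differences of the 6 separate regions other than Adamts9, the ranges were -2.61 to -1.91 (Adamts1), -1.99 to -1.48 (Adamts2), -4.48 to -3.86 (Adamts4), -0.940 to -0.736 (Adamts5), -9.02 to -7.72 (Adamts6) and -3.92 to -2.87 points (Adamts12).

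Low counts limit Adamts12, Adamts15 and Adamts16. Single libraries held as few as 10 reads of Adamts12 and of Adamts15, and 15 of Adamts16. Coverage of 10 to 30 reads limits single cytosines.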
